A study of Mus musculus with 4 samples.

Results

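Cells of the mouse small-intestinal crypt that carried at least 2 transcript molecules of Neurog3, the gene of the transcription factor neurogenin 3, are described here in single-cell RNA-sequencing data of 4 libraries. Cells entered if 500 or more genes were detected in them and no more than 20% of their molecules were mitochondrial (QC cells), and the Neurog3 cells numbered 757 of 29731, or 2.55%. Molecules were counted by UMIs, unique molecular identifiers that merge PCR copies. The 2 libraries labelled 2D, replicates 1 and 2, held 157 and 251 of the Neurog3 cells, and the 2 libraries labelled 0D, replicates 1 and 2, held 167 and 182. Because Neurog3 counts chose the cells, the Neurog3 level is given only as a description. Neurog3 stayed in the tables that were fitted, but it is not among the genes counted as tested or called, and no test of it is reported.

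The design text speaks of intestinal epithelium isolated from mice prior to sleep deprivation and following it. 2D is read here as after and 0D as before, which the labels do not spell out, and no strain, genotype, sex or age is used here. Crypts of the small intestine were loosened with 10 mM EDTA and strained at 70 µm, per the labels' protocols, with no sort for a cell type. Whether each library is a separate animal is not in the labels. The p-values below therefore stand against the spread among 4 libraries, and that spread may be technical. The Neurog3 cells held 1928430 and 2083812 UMIs in 2D-1 and 2D-2 and 2012613 and 1748398 in 0D-1 and 0D-2, with medians of 9118 and 6045 UMIs per cell in 2D and 7378 and 7619 in 0D. No barcode of a Neurog3 cell recurred among the Neurog3 cells of another library. Among all QC cells, 13 to 16 barcodes were shared by each pair of libraries. The summed profiles of the pair of 2D libraries lay 0.456 apart and those of the 0D pair 0.451 (root mean square log2 difference), against 0.498 to 0.614 between a 2D and a 0D library.

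Neurogenin 3 is a basic helix-loop-helix transcription factor that commits secretory progenitors of the crypt to the enteroendocrine fate. It is made for a short time, in cells that leave division, and it switches on further factors such as Neurod1, Insm1 and Pax4, after which cells start to make granins and one or a few hormones. Notch signalling from neighbouring cells holds it back through Hes1, and factors of this class bind DNA at E-boxes, which read CANNTG.

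The promoters of 4 genes on this path are shown because the levels below turn on them: Neurog3 itself (chr10:62132840-62133139, plus strand), its target Neurod1 (chr2:79456587-79456886, minus strand), and the hormone genes Ghrl (chr6:113719862-113720161, minus strand) and Tac1 (chr6:7554811-7555110, plus strand), which mark the 2 hormone-bearing groups among the cells. Each is 250 bases before to 50 bases after a start site, read 5′ to 3′ on the gene's strand and credited to RefSeq on GRCm38.p6, in lower case with each E-box match (CANNTG, a motif that reads the same on both strands) in capitals. Ghrl has 4 start sites in that table, and the farthest upstream is printed.
Neurog3: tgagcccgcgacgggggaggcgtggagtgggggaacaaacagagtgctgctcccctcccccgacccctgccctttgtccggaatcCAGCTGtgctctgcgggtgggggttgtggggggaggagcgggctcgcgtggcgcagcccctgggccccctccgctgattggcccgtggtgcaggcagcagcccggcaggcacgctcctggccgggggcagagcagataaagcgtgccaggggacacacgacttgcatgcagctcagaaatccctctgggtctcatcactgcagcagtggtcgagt
Neurod1: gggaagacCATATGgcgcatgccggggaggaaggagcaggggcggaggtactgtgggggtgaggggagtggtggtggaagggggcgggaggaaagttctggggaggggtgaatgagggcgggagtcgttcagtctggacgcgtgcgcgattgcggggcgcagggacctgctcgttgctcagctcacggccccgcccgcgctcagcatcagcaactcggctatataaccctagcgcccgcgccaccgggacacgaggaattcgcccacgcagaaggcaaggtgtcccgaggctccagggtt
Ghrl: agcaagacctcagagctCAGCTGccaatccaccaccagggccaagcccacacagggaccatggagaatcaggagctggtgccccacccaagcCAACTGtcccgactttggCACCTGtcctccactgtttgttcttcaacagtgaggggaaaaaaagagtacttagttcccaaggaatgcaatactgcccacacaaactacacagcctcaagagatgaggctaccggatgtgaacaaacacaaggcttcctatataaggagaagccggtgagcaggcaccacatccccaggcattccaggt
Tac1: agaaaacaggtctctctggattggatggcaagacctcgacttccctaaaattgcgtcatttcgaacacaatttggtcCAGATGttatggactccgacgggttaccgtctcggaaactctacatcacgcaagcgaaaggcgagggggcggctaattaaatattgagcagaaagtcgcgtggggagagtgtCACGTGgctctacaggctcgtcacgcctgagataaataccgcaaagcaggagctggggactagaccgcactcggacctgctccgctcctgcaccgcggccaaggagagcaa
The Neurog3 window holds 1 match, 165 bases before the start site, and the Neurod1 window 1 match, 242 bases before it. Tac1 holds 2, at 173 and 61 bases before the start, and this Ghrl window holds 3. Of 32851 mouse promoter windows of the same 300 bases, 72.3% hold at least 1 match and 39.6% at least 2, so a match is a description of the letters and no more.

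The label of these cells, endocrine progenitors, was checked against Sox4, Neurod1 and Insm1, which the threshold did not use. CPM here are UMIs of a gene per 1000000 UMIs of the summed cells. They come from a 3′ kit that reads 1 end of each transcript, were not divided by gene length, and are compared for 1 gene across cells. Neurod1, a factor of endocrine differentiation, averaged 648 CPM over the 4 libraries in Neurog3 cells, against 23.8 in all other QC cells. Insm1, a zinc-finger factor of endocrine precursors, averaged 357 against 8.65 CPM. Sox4, a factor of early endocrine and other progenitors, averaged 1321 against 62.9 CPM. All 3 were higher in Neurog3 cells in every library, as the label would have it. No test is given, since the cells were chosen by an endocrine gene.

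The 20 genes with the highest level in Neurog3 cells relative to other QC cells held further endocrine genes. Ooep, known from the mouse oocyte and early embryo, reached 307 CPM in Neurog3 cells against 1.45 in the others, and 17.5 in cells with granins but no Neurog3 UMI. Neurod2, a relative of Neurod1 known from neurons, reached 116 CPM against 0.888, with 16.2 in those granin-bearing cells. Gadd45a, a growth-arrest and DNA-damage gene, had 430 CPM against 25.0 in other QC cells and 108 in granin-bearing cells. Cdkn1c, the cyclin-dependent kinase inhibitor p57, had 475 against 20.5 CPM, and Gfra3, a co-receptor of the GDNF family ligand artemin, 290 against 7.98 CPM. The others were Ghrl, Hmgn3, Vwa5b2, Olfm1, Nefm, Nkx2-2, Vim, Tac1, Cacna1a, Fgd2 and Celf3. Ooep, Neurod2, Sox4 and Gadd45a were thus far lower in granin-bearing cells without Neurog3, whereas Vim, an intermediate filament gene, and Tac1 were higher there, at 650 and 1701 CPM against 478 and 1167 CPM in Neurog3 cells.

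Cells marked by Dll1, the Notch ligand of secretory progenitors (at least 2 UMIs of Dll1 and 0 of Neurog3, 2748 cells), are set beside them. The rule keeps Neurog3 out of the Dll1 cells, so a low level of endocrine factors there follows in part from the choice. Dll1 averaged 47.2 CPM in Neurog3 cells against 168 in the Dll1 cells that it chose. Atoh1, the factor that starts the secretory lineage, averaged 16.1 CPM in Neurog3 cells against 122 in Dll1 cells, while Neurod1 averaged 648 against 5.91 CPM. Neurog3 cells therefore had little Atoh1 transcript and much of the endocrine factors, in each of the 4 libraries.

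Around the threshold of 2 UMIs, the cells just inside and just outside had different levels, given here with no test. The 108 cells with exactly 2 Neurog3 UMIs had 550 CPM of Sox4, 507 of Neurod1 and 220 of Insm1, and the 206 QC cells with exactly 1 had 250, 322 and 151 CPM. Sst, the gene of somatostatin made by mature D cells, had 3.18 CPM in the 2-UMI cells and 537 CPM in the 1-UMI cells. Lyz1, the lysozyme gene of Paneth cells, had 5342 CPM in the 2-UMI cells and 10637 in the 1-UMI cells. Among cells of 16 or more Neurog3 UMIs (141 cells) Sox4 stood at 2003 CPM, Gadd45a at 708, Pax4 at 123 and Insm1 at 450, all above their levels in the 2-UMI cells, where Gadd45a had 165 and Pax4 44.5 CPM. Granin UMIs (Chga plus Chgb, the chromogranins of hormone granules) had a median of 20 per cell in the 1-UMI cells, 84.5 in the 2-UMI cells, 27 at 3 to 7, 4 at 8 to 15 and 3 at 16 or more. They were thus highest in the cells just inside the threshold and lower above it.

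To compare cells by granin content at equal depth, each cell was thinned to 5000 UMIs, which left 653 of the 757, and grouped by its granin UMIs. Granin content also differed between the hormone-bearing groups described below, with Chgb far lower in cells with Ghrl. The groups are therefore not an order of differentiation alone. The groups were 258 cells with 0 to 1 granin UMI, 86 with 2 to 9, 108 with 10 to 49 and 201 with at least 50. Neurog3 differed little between them, at 1363, 1267, 1154 and 1103 CPM with rising granins. Sox4 was lower at each step, at 2553, 1786, 1172 and 643 CPM, and this order held in each library. Dll1 was at 93.8, 30.2, 42.6 and 8.96 CPM, and a list of G2 and mitosis genes summed to 1488, 753, 489 and 474 CPM. A list of S phase genes did not fall steadily with rising granins, at 493, 498, 320 and 491 CPM.

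Neurod1 had 426 CPM in the first group and 1058, 1146 and 1166 CPM in the other 3. Pax4, a homeobox factor of early endocrine cells, had 67.4 CPM and then 147, 135 and 138 CPM. Gadd45a was highest in the second group, at 874 CPM, with 661 CPM in the first and 489 and 392 CPM in the last pair. So the cells with hardly any granin carried the most Sox4 and mitosis transcripts and the least Neurod1 and Pax4. These are descriptions of pooled cells with no test, because granin UMIs, like every other gene, come from the same cells.

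**Figure D1:**
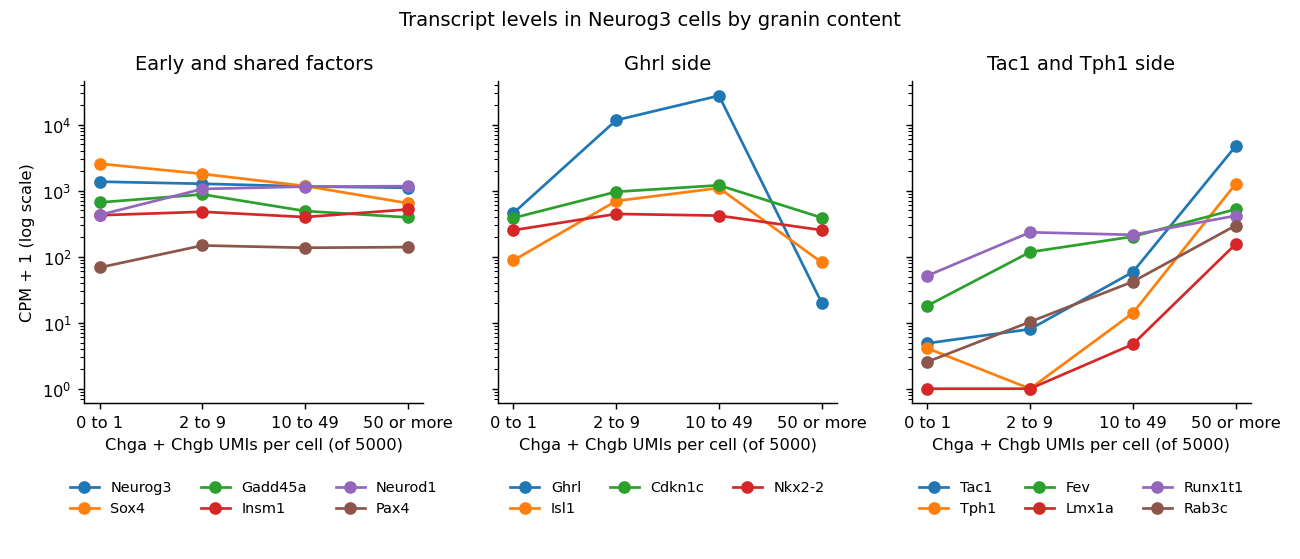
Levels in the 653 Neurog3 cells thinned to 5000 UMIs (CPM plus 1, log scale) by the number of Chga and Chgb UMIs per cell, pooled over the 4 libraries. Sox4 is lower at each step, Ghrl with Isl1 is highest at 10 to 49 granin UMIs, and Tac1, Tph1 and Lmx1a are highest at 50 or more.

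The groups at 10 to 49 and at 50 or more granin UMIs carried different hormones. Ghrl, the gene of the hunger hormone ghrelin, had 27335 CPM at 10 to 49 granin UMIs and 18.9 CPM at 50 or more. Tac1, which encodes substance P, had 57.4 and 4680 CPM in the same groups, and Tph1, the rate-limiting enzyme of serotonin synthesis in the gut, 13.0 and 1258 CPM. The transcription factors split in the same way. Isl1, a homeobox factor, had 1093 CPM at 10 to 49, against 80.6 CPM at 50 or more. Fev and Lmx1a, factors of serotonin cells, had 200 and 3.70 CPM at 10 to 49, against 520 and 153 CPM at 50 or more.

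The split was sharp enough that single cells could be placed by their hormone UMIs. At 5 or more UMIs after thinning, 99 of 653 cells (15.2%) carried Ghrl, 143 (21.9%) carried Tac1 plus Tph1, 411 (62.9%) carried neither and 0 carried both, which allows a share of up to 0.459% (3 cells, counting error only). In the cells with Ghrl, Isl1 stood at 1366 CPM and Nefm, a neurofilament gene, at 933. The cells with Tac1 or Tph1 had 6.99 CPM of Isl1 and 5.59 of Nefm. Cdkn1c had 1685 CPM in the Ghrl cells, against 415 with Tac1 or Tph1 and 397 in cells with neither, and Prox1, a homeobox factor, had 265, 47.6 and 123 CPM in the same order.

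The reverse held for another set. Vim had 2615 CPM in the cells with Tac1 or Tph1 and 0 UMIs in the Ghrl cells, as had Lmx1a (213 CPM) and Mnx1 (102 CPM), a homeobox factor. Fev was at 531 against 97.0 CPM, Runx1t1, a corepressor, at 341 against 123 CPM, and Rab3c, a small GTPase of secretory vesicles, at 415 against 40.4 CPM. Chgb, one of the pair of granins, had 59511 CPM in the Tac1 or Tph1 cells and 461 CPM in the Ghrl cells, whereas Chga had 4253 and 1711 CPM. Sct, the gene of secretin, was at 1618 CPM in the cells with Tac1 or Tph1, 699 in the Ghrl cells and 264 in cells with neither.

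Factors shared by both groups differed less. Neurod1 had 1136 CPM in cells with Tac1 or Tph1, 962 with Ghrl and 734 with neither, and Insm1 523, 382 and 448 CPM. Cells with neither hormone held the most Sox4, Gadd45a and Pax4, at 2092, 752 and 134 CPM. In the cells with Ghrl, Sox4 was at 1287, Gadd45a at 323 and Pax4 at 42.4 CPM. In the cells with Tac1 or Tph1 they were at 566, 253 and 92.3 CPM, so Sox4 was lowest there and Pax4 lowest with Ghrl.

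**Figure D2:**
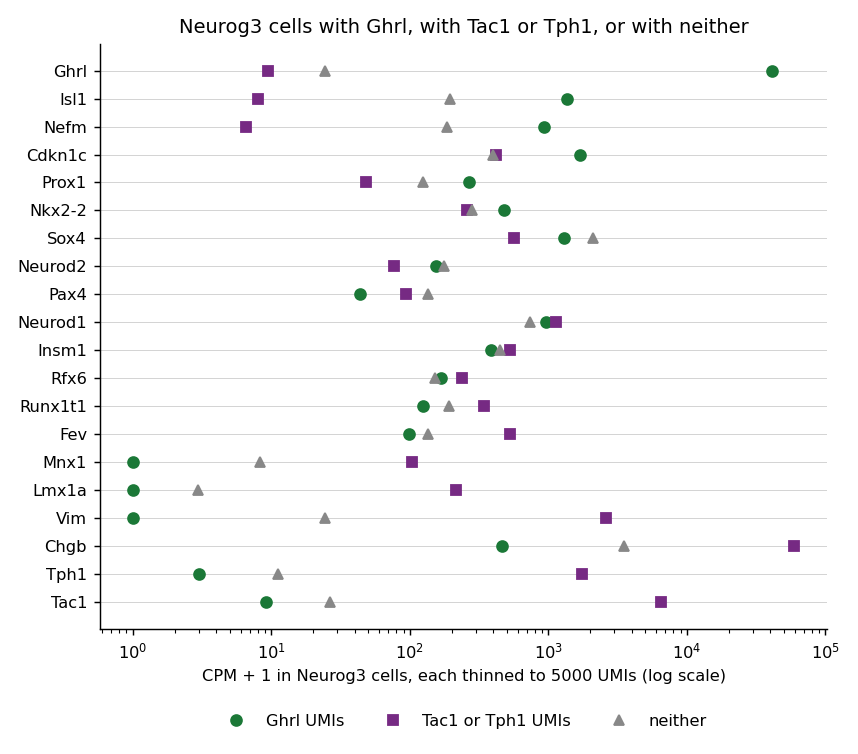
Levels in Neurog3 cells with at least 5 Ghrl UMIs (99 cells), at least 5 Tac1 plus Tph1 UMIs (143) or neither (411), each cell thinned to 5000 UMIs and pooled over the libraries (CPM plus 1, log scale). Isl1, Nefm and Cdkn1c are highest with Ghrl, Vim, Lmx1a, Mnx1, Fev and Chgb with Tac1 or Tph1, and Sox4 and Pax4 with neither.

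Of the other hormones, only Sct, the secretin gene, was common among those described here. At least 10 UMIs of Sct were found in 22.3% and 7.57% of Neurog3 cells in 2D-1 and 2D-2, against 8.38% and 13.7% in 0D-1 and 0D-2, and the groups overlapped. At least 1 UMI of it was found in 79.6% and 63.7% in 2D and 68.9% and 65.9% in 0D. Lgr5 cells were those with at least 2 Lgr5 UMIs, 0 of Neurog3 and under 10 granin UMIs. In them at least 1 Sct UMI was found in 37.3% and 29.3% in 2D and 20.5% and 29.5% in 0D. The limit on granins keeps granin-rich cells out, so low shares of hormone genes in Lgr5 cells follow in part from the choice. Cells with at least 10 UMIs of Cck, the cholecystokinin gene, numbered 3 of 157 and 10 of 251 in 2D-1 and 2D-2 and 4 of 167 and 5 of 182 in 0D-1 and 0D-2. For Gip, the incretin gene of K cells, there was 1 such cell in each 2D library and 0 in each 0D library. For Gcg, the proglucagon gene of L cells, there was 1, in 0D-1, and for Sst and Nts there were 0 in every library. Insl5 and Vip had 0 UMIs in all Neurog3 cells. At least 1 Gip UMI was found in 18.5% and 15.1% of Neurog3 cells in 2D-1 and 2D-2 and in 6.59% and 13.7% in 0D-1 and 0D-2, against 24.2% and 19.5% of Lgr5 cells in 2D and 9.70% and 13.1% in 0D. The Lgr5 cells should lack the gene, and their share was the higher one except in 0D-2. Their median depths of 12273 to 19235.5 UMIs were above those of Neurog3 cells, and no expression is read from these single UMIs. For Tac1 the same shares were 35.7% and 31.9% in 2D and 30.5% and 31.3% in 0D for Neurog3 cells, against 7.14% and 4.71% in 2D and 4.09% and 6.69% in 0D for Lgr5 cells.

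The first question of the comparison was whether the 2D and 0D libraries held different shares of Neurog3 cells. They made up 2.23% and 3.14% of QC cells in 2D-1 and 2D-2, against 2.20% and 2.55% in 0D-1 and 0D-2. The groups overlapped, with means of 2.69% ± 0.642 in 2D and 2.38% ± 0.248 in 0D (SD, n = 2 each, exact two-sided permutation test on the library shares, p = 0.667, where the smallest possible p is 0.333). The exact binomial (Clopper-Pearson) 95% interval of a single library, which covers counting error only, ran for 0D-1 from 1.88% to 2.56%. At a fixed depth of 5000 UMIs the shares were 2.12% and 2.76% in 2D and 1.70% and 2.34% in 0D, so they overlapped there too.

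Taken as a share of endocrine cells (cells with at least 2 Neurog3 UMIs or at least 10 granin UMIs), the order was the other way. Neurog3 cells were 19.8% and 27.0% of those cells in the 2D libraries and 29.6% and 30.8% in the 0D libraries, with both 2D libraries below both 0D libraries (difference of means -6.80 percentage points, exact permutation p = 0.333). Granin-bearing cells with 0 Neurog3 UMIs numbered 603 and 637 in the 2D libraries and 373 and 389 in the 0D libraries. So the direction of the difference depended on the denominator, and leaving out 2D-2 also reversed it (-0.142 percentage points of QC cells).

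**Figure D3:**
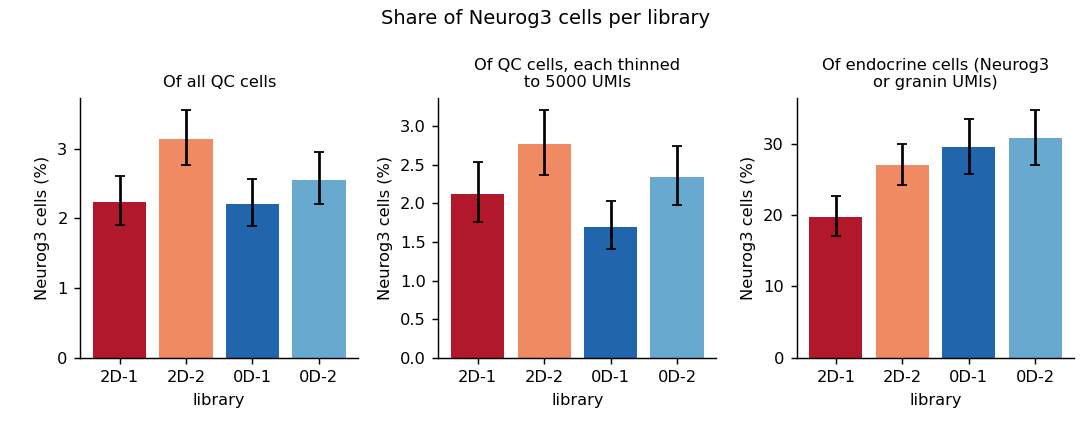
Neurog3 cells as a percentage of all QC cells, of QC cells thinned to 5000 UMIs, and of endocrine cells, per library, with 95% Clopper-Pearson intervals that cover counting error only. The first pair of panels shows overlapping groups, and in the third both 2D libraries lie below both 0D libraries.

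The make-up of the Neurog3 cells varied as much between replicates as between groups. Cells with at least 10 granin UMIs were 65.0% and 55.0% of them in 2D-1 and 2D-2, against 50.3% and 57.7% in 0D-1 and 0D-2 (59.97% ± 7.06 and 54.0% ± 5.23, SD, n = 2 each, exact permutation p = 0.667). At fixed depth, cells with Ghrl made up 23.5% and 11.8% in 2D and 14.97% and 11.7% in 0D, and cells with Tac1 or Tph1 made up 27.5% and 18.8% in 2D and 17.01% and 24.6% in 0D (exact permutation p = 0.667 for each). 2D-1 had the highest share of both hormone-bearing groups and 2D-2 a low share of Ghrl cells, so the groups overlapped in each case.

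Next, transcript levels were compared between 2D and 0D in summed Neurog3 cells, where fewer cells of a kind and less RNA per cell cannot be told apart. Of 10202 genes tested by edgeR (quasi-likelihood, Benjamini-Hochberg adjusted p under 0.05), 34 passed (0.333%), 27 of them higher in 2D (0.265%) and 7 lower (0.0686%). All genes tested had a median log2 change of 0.00 (2D over 0D throughout). The log2 change was above 0 for 50.5% of them and below 0 for 49.5%. At an unadjusted p under 0.05, 3.99% of genes were higher and 5.57% lower. In CPM, 14.3% of genes had both 2D libraries above both 0D libraries and 25% had both below, and counts of non-overlapping genes in the lists are read against these shares. Gene lists were described by counts and medians, with no test of their own.

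Of the 24 endocrine transcription factors listed, 23 were tested, 22 had a positive log2 change and the median was 0.33. Of these, 0 passed edgeR's adjusted threshold, with 3 higher at an unadjusted p under 0.05 (background 3.99% higher). Hhex was too low to test. Neurod1 had 773 and 754 CPM in 2D-1 and 2D-2, against 400 and 666 CPM in 0D-1 and 0D-2. Both 2D libraries lay above both 0D libraries, and 0D-1 lay far below the rest (log2 0.58 ± 0.22 SE, edgeR adjusted p = 0.467). Insm1 had 434 and 381 CPM in 2D, against 229 and 385 in 0D (log2 0.47 ± 0.22, edgeR adjusted p = 0.545), and Sox4 had 1364 and 1459 CPM in 2D, against 1092 and 1368 in 0D (log2 0.26 ± 0.18, edgeR adjusted p = 0.693). For both, 0D-1 was the lowest library and the groups overlapped.

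Lmx1a (49.3 and 42.7 CPM in 2D, 24.3 and 38.9 in 0D) and St18, a zinc-finger factor (140 and 135 CPM in 2D, 75.0 and 124 in 0D), were the other 2 with an unadjusted p under 0.05. Pax4 had 75.7 and 104 CPM in 2D against 65.1 and 86.9 in 0D, and Isl1 had 332 and 207 CPM in 2D against 187 and 230 in 0D. In all, 6 of the 23 had both 2D libraries above both 0D libraries (background 14.3%) and 0 had both below. Without 0D-2, where only 0D-1 stands for 0D, the median of the list was 0.54, and without 0D-1 it was 0.15. The list therefore sat slightly above 0, with 0D-1 the low library. Cells of over 20000 UMIs held 34.3% and 19.1% of the summed UMIs in 2D-1 and 2D-2, against 41.1% and 18.4% in 0D-1 and 0D-2. Cells with at least 10 UMIs of the G2 and mitosis list held 27.7% and 14.8% in 2D, against 53.8% and 29.1% in 0D. The part of such cells in the 0D-1 levels was not tested.

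No granule gene passed the test. Of 20 listed, 18 were tested, 17 had a positive log2 change, and the median was 0.36, with Scg2 and Pcsk2 too low to test. Chga had 1643 and 1354 CPM in 2D, against 839 and 1306 in 0D (log2 0.54 ± 0.21, edgeR adjusted p = 0.474), and Chgb 14261 and 13122 CPM in 2D, against 8554 and 12775 in 0D. Pcsk1, which cuts prohormones, had 295 and 230 CPM in 2D, against 165 and 253 in 0D. Again the low library was 0D-1. With each cell thinned to 5000 UMIs the median of the list was 0.07.

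Of 17 genes of hormones or their synthesis, 8 were tested, 5 had a positive change, the median was 0.45 and 0 passed. Tac1 had 1438 and 1305 CPM in 2D, against 723 and 1202 in 0D (log2 0.57 ± 0.22, edgeR adjusted p = 0.473). Tph1 had 392 and 348 CPM in 2D, against 260 and 281 in 0D (log2 0.50 ± 0.14, edgeR adjusted p = 0.383), with both 2D libraries above both 0D ones. Ghrl had 8862 and 1922 CPM in 2D, against 2772 and 4351 in 0D. The 2D libraries held its highest and its lowest value, so the groups overlapped widely. Gip (126 and 32.6 CPM in 2D, 5.47 and 22.3 in 0D) and Gcg (2.07 and 2.40 CPM in 2D, 44.2 and 6.86 in 0D) rested on few cells. In 2D-1, 5 cells held 90.1% of the Gip UMIs, and in 0D-1 a single cell held 86 Gcg UMIs.

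Genes of Notch signalling and of secretory fate showed no common direction. Of 23 listed, 20 were tested, 8 had a positive and 12 a negative log2 change, the median was -0.03 and 0 passed, with Gfi1, Notch2 and Hey1 too low to test. Hes1, the Notch target that holds back Neurog3, had 21.8 and 13.4 CPM in 2D, against 50.7 and 29.2 in 0D, with both 2D libraries below both 0D ones (log2 -1.15 ± 0.33, edgeR adjusted p = 0.383). Spdef, a factor of goblet and Paneth cells, had 33.2 and 36.0 CPM in 2D against 23.4 and 16.6 in 0D (log2 0.84 ± 0.25, edgeR adjusted p = 0.393), and Btg2, an antiproliferative gene, 895 and 978 CPM in 2D against 616 and 745 in 0D (log2 0.52 ± 0.17, edgeR adjusted p = 0.420). Dll1 had 36.3 and 49.9 CPM in 2D against 55.6 and 46.9 in 0D, overlapping. None of the 4 passed the test over all genes.

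**Figure D4:**
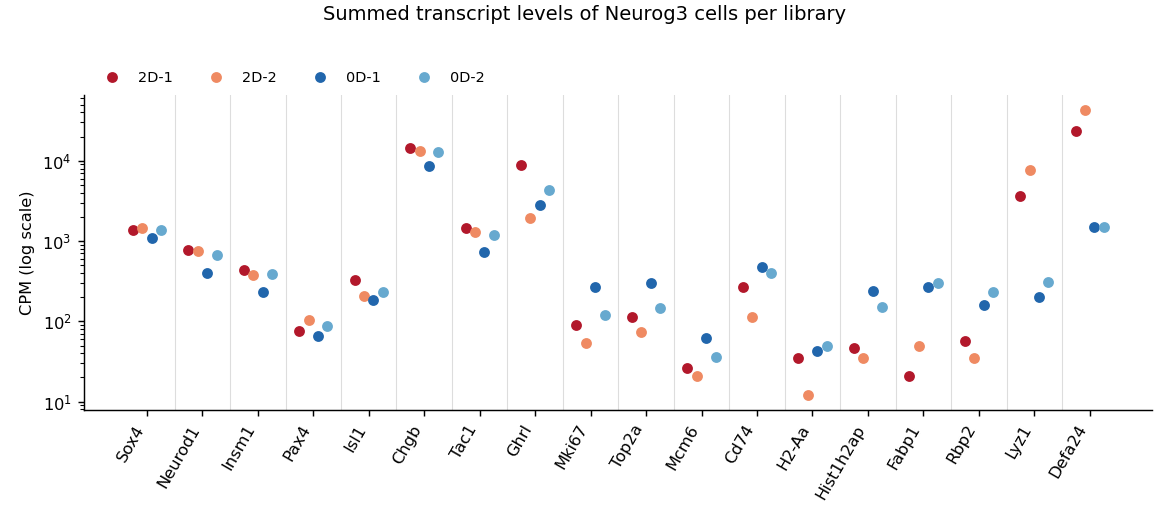
Levels per library (CPM of summed Neurog3 cells, log scale) of endocrine factors and hormones at the left, dividing-cell and MHC class II genes in the middle, and genes that passed edgeR's test at the right, with 2D points left of 0D points. 0D-1 is the lowest library for Neurod1, Insm1 and Tac1, and only the genes from Hist1h2ap to the right passed.

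The 7 genes that fell in 2D were Fabp1, Rbp2, Gm42418 and the histone genes Hist1h2ap, Hist2h2ac, Hist1h4d and Hist1h1e. Hist1h2ap, which encodes a core histone made in S phase, had 46.2 and 34.6 CPM in 2D, against 238 and 150 in 0D (log2 -2.23 ± 0.25, edgeR adjusted p = 0.00542). The groups lay far apart, but few cells carried the molecules. In 2D, 5 cells of each library held 76.4% and 68.1% of the Hist1h2ap UMIs, against 50.8% and 73.4% in 0D. At least 1 UMI was found in 12.1% and 9.96% of Neurog3 cells in 2D and 23.4% and 24.7% in 0D. Hist1h2ap was lower in 2D in other cells too. It had 62.5 and 44.6 CPM in 2D, against 137 and 92.4 in 0D, in granin-bearing cells without Neurog3. In Lgr5 cells it had 159 and 100 CPM in 2D, against 294 and 285 in 0D. Hist1h1e, a linker histone gene, had 117 and 116 CPM in 2D, against 247 and 225 in 0D (log2 -0.96 ± 0.15, edgeR adjusted p = 0.0369). Of the 12 histone genes listed, all tested, 11 had a negative change, the median was -1.33, 4 passed as lower and 9 had both 2D libraries below both 0D ones (background 25%). Histone genes are near-identical copies and most of their mRNAs lack a poly(A) tail, so counts of single members are uncertain. Hist2h2ac stood at -0.73 after thinning (edgeR adjusted p = 0.906, against -1.94 with all UMIs) and Hist1h4d at -0.92 (edgeR adjusted p = 0.289, against -1.45). Hist1h1e did not pass with either 0D library left out, and Hist1h2ap did not without cells of over 20000 UMIs (log2 -1.61, edgeR adjusted p = 0.161).

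Fabp1, the fatty acid binding protein of absorptive enterocytes, had 20.7 and 49.9 CPM in 2D, against 269 and 301 in 0D (log2 -2.93 ± 0.32, edgeR adjusted p = 0.00482). Rbp2, their retinol binding protein, had 57.0 and 34.6 CPM in 2D, against 159 and 233 in 0D (log2 -2.05 ± 0.24, edgeR adjusted p = 0.00589). Few cells carried these molecules. In 2D, 62.5% and 80.8% of the Fabp1 UMIs sat in 5 cells of each library, against 91.7% and 93.9% in 0D. Only 1 Neurog3 cell in each 0D library held 10 or more Fabp1 UMIs, against 0 and 2 cells in 2D-1 and 2D-2. Most of the 542 and 527 Fabp1 UMIs in 0D-1 and 0D-2 thus sat in 1 cell each. For Rbp2 the 5 cells held 70.0% and 48.6% in 2D, against 88.7% and 94.8% in 0D. Without the 57 Neurog3 cells of over 20000 UMIs the log2 change of Fabp1 was -1.13 (edgeR adjusted p = 0.372) and that of Rbp2 -0.26 (edgeR adjusted p = 0.910). Of 15 enterocyte genes, 11 were tested, 4 had a positive and 7 a negative change, the median was -0.49 and these 2 passed. The list summed to 868 and 644 CPM in 2D and to 1179 and 1293 in 0D, Lct and Treh were at 0, and the part of enterocyte RNA in these calls was not tested.

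Gm42418, a locus whose reads carry ribosomal RNA sequence, had 3780 and 2942 CPM in 2D, against 10691 and 13710 in 0D (log2 -1.81 ± 0.21, edgeR adjusted p = 0.00589). It was spread over nearly all cells, with 5 cells holding 29.2% and 16.6% of its UMIs in 2D and 12.8% and 10.8% in 0D. Without cells of over 20000 UMIs it stood at -2.08 (edgeR adjusted p = 0.000255), and without 0D-2 it did not pass (edgeR adjusted p = 0.0897). The fall was seen in the other cells of these libraries as well. Gm42418 had 5236 and 4785 CPM in 2D, against 16230 and 19131 in 0D, in granin-bearing cells without Neurog3, where the change differed from that of Neurog3 cells by -0.06 (log2, edgeR adjusted p = 0.961). In Lgr5 cells it had 3254 and 3438 CPM in 2D, against 7004 and 6841 in 0D. AY036118 is annotated on the opposite strand within the span of Gm42418, so it is not a separate locus. It had 189 and 171 CPM in 2D, against 324 and 477 in 0D (log2 -1.10 ± 0.19, edgeR adjusted p = 0.0768). Khk, ketohexokinase, and Pbk, a mitotic kinase, came next and did not pass either (log2 -1.47 and -1.56, edgeR adjusted p = 0.0573 and 0.0828).

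Cell-cycle genes lay lower in 2D as lists, while 0 of their members passed the test. All 28 tested genes of G2 and mitosis had a negative log2 change (median -0.94, 20 at an unadjusted p under 0.05, and 18 with both 2D libraries below both 0D ones). All 24 tested S phase genes were negative too (median -0.76, with 11 and 17 by the same counts). Over all genes tested, 5.57% were lower at an unadjusted p under 0.05 and 25% had both 2D libraries below both 0D ones. Mki67, the proliferation marker, had 91.3 and 53.7 CPM in 2D, against 267 and 120 in 0D (log2 -1.39 ± 0.36, edgeR adjusted p = 0.361). Top2a, a topoisomerase of dividing cells, had 113 and 73.9 CPM in 2D, against 301 and 145 in 0D (log2 -1.23 ± 0.33, edgeR adjusted p = 0.365). In both, 0D-1 stood above all others, and the 2D libraries lay below both 0D libraries.

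The lists depended on depth and on 0D-1. After thinning, the G2 and mitosis median was -0.76 over 17 tested genes, all negative, but that of S phase was -0.23. Without cells of over 20000 UMIs the G2 and mitosis median was -1.08 and the S phase median -0.16. Without 0D-1, G2 and mitosis stood at -0.48. Counted by cell at fixed depth, Neurog3 cells with at least 10 UMIs of the G2 and mitosis list were 9 of 149 and 10 of 186 in 2D, against 31 of 147 and 16 of 171 in 0D. These shares were 6.04% and 5.38% in 2D, against 21.1% and 9.36% in 0D (5.71% ± 0.469 and 15.2% ± 8.30, SD, n = 2 each, exact permutation p = 0.333). The 2D libraries lay close together and below both 0D libraries, which themselves lay far apart.

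In Lgr5 cells the same share was 47.5% and 39.9% in 2D and 52.4% and 54.8% in 0D, so both 2D libraries lay below both 0D libraries there too. In granin-bearing cells without Neurog3 it was 9.73% and 9.56% in 2D and 12.1% and 8.54% in 0D, and the groups overlapped. Stem cell markers in Neurog3 cells gave 5 positive and 9 negative changes of 14 tested (median -0.19, 0 passed). Olfm4, a stem cell gene, had 384 and 103 CPM in 2D, against 940 and 420 in 0D (log2 -1.47 ± 0.53, edgeR adjusted p = 0.452), with both 2D libraries below both 0D ones.

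The 27 genes that rose in 2D were led by products of Paneth cells, the antimicrobial secretory cells of the crypt base. They were 15 alpha-defensin genes (Defa3, Defa5, Defa17, Defa20 to Defa24, Defa26, Defa29, Defa30, Defa32, Defa34, Defa35 and Defa36), Lyz1, Itln1, Mptx2, Ang4, Mmp7, Clps, Pnliprp2, Gm7861, Gm14851, Gm15292, Gm15293 and AY761184. Defa24 had 23637 and 43185 CPM in 2D, against 1481 and 1503 in 0D (log2 4.56 ± 0.35, edgeR adjusted p = 0.000746). Lyz1 had 3672 and 7699 CPM in 2D, against 202 and 313 in 0D (log2 4.55 ± 0.41, edgeR adjusted p = 0.00135). Defa5 had 414 and 489 CPM in 2D, against 8.45 and 11.4 in 0D (log2 5.57 ± 0.24, edgeR adjusted p = 3.2e-05). The groups were far apart, and reads of the near-identical defensin copies can be split between them. All 14 listed Paneth genes had a positive change (median 4.08) and 12 passed.

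Most of these molecules came from a few cells. Of the Lyz1 UMIs, 5 cells held 86.0% and 81.6% in 2D-1 and 2D-2, against 23.6% and 20.3% in 0D-1 and 0D-2. In 8 Neurog3 cells of 2D-1 and 9 of 2D-2, over 5% of UMIs were from the Paneth list, up to 53.3% and 66.5%, against 0 such cells in either 0D library. They held 10.9% and 16% of all Neurog3-cell UMIs in 2D. With 1 further cell of 2D-1 that carried immune-cell genes they made 18 cells, of which 9 were among the 8% of QC cells with the highest doublet scores. Without these 18 cells 9 genes passed, with Defa21, Defa22, Defa24 and Defa29 higher, and Fabp1, Rbp2, Gm42418, Hist1h2ap and Hist2h2ac lower. The Paneth median was then 0.97, still with 14 of 14 positive. The cells left out were chosen by their Paneth share, which by itself lowers the Paneth genes in 2D. Without the cells of the highest doublet scores 0 genes passed (edgeR, smallest adjusted p 0.245, 283 genes at an unadjusted p under 0.05). The log2 changes stayed large there, with a Paneth median of 3.42 and 14 of 14 positive, Defa5 at 4.55, Defa24 at 3.88 and Itln1 at 3.88 (edgeR adjusted p = 0.997 for each).

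A low Paneth level was also present in the median cell of every library, taken over all Neurog3 cells with the Paneth-rich ones included. The median Neurog3 cell had 0.470% and 0.556% Paneth UMIs in 2D, against 0.238% and 0.349% in 0D. In all QC cells the median was 0.834% and 0.983% in 2D, against 0.241% and 0.341% in 0D. Both measures put the 2D libraries above the 0D libraries, and the part of free RNA and of doublets in the Paneth genes was not tested.

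**Figure D5:**
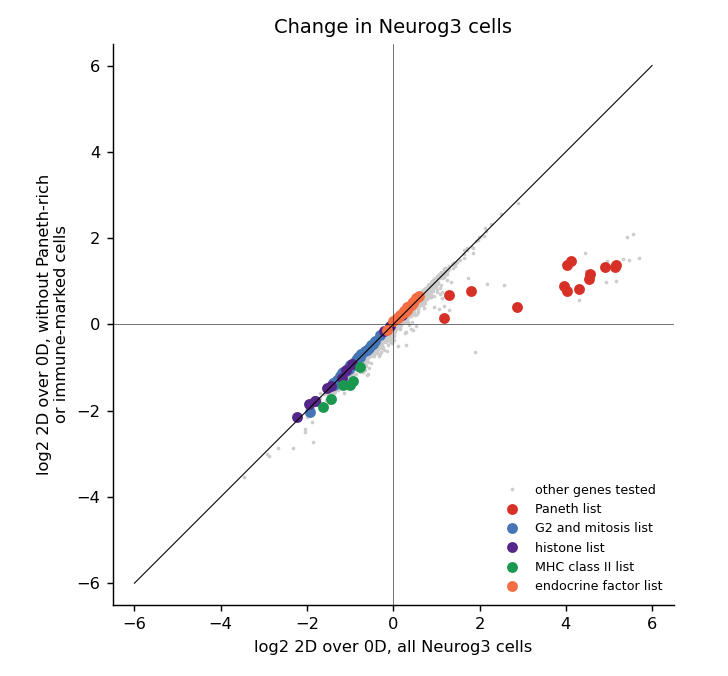
Log2 change (2D over 0D) of each tested gene in all Neurog3 cells on the x axis and without the 18 Paneth-rich or immune-marked cells on the y axis, with the line of equal values. Paneth genes move from a median of 4.08 to 0.97, while endocrine factors, histone and mitosis genes stay near the line and MHC class II genes lie slightly below it.

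Antigen presentation genes of MHC class II, which crypt epithelium makes at low level, were all lower in 2D. The 6 tested of 7 had a median of -1.08, and all 6 had both 2D libraries below both 0D ones (background 25%). All 6 had an unadjusted p under 0.05 (background 5.57% lower), and 0 passed. Cd74, the invariant chain, had 268 and 115 CPM in 2D, against 478 and 396 in 0D (log2 -1.16 ± 0.31, edgeR adjusted p = 0.361). 2D-2 was the lowest library, and without it the median was -0.59. Without cells of over 20000 UMIs it was -0.49. In Lgr5 cells the list summed to 1148 and 1333 CPM in 2D and to 1626 and 1988 in 0D, and in granin-bearing cells to 329 and 352 in 2D and to 616 and 649 in 0D, so the 2D libraries lay lower there too.

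Genes of protein folding in the endoplasmic reticulum lay slightly higher. All 16 tested had a positive change (median 0.45, 15 with both 2D libraries above both 0D ones, background 14.3%) and 0 passed. Hspa5, the chaperone BiP, had 658 and 747 CPM in 2D, against 472 and 402 in 0D (log2 0.74 ± 0.18, edgeR adjusted p = 0.332). Immediate early genes gave 17 positive of 17 (median 0.47, 11 above without overlap, background 14.3%, 0 passed). Fos had 432 and 524 CPM in 2D, against 310 and 380 in 0D. Cirbp and Rbm3, the cold-inducible pair, had changes of 0.17 and 0.42, and 0 passed.

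Interferon-stimulated genes rested on 1 library. All 24 tested had a positive change (median 1.22) and 0 passed, but their summed level was 2398 and 568 CPM in 2D, against 874 and 597 in 0D. 2D-1 alone stood apart, 2D-2 was the lowest, and without 2D-1 the median was -0.22. Irf7, a factor of the interferon response, had 153 and 29.8 CPM in 2D, against 23.4 and 19.4 in 0D, and 70.7% of the Neurog3 cells of 2D-1 had a UMI of it, against 18.7% in 2D-2 and 18.6% and 14.8% in 0D.

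The remaining lists passed no gene. Goblet cell genes had 14 positive of 15 tested (median 0.51), led by Tff3 at 5826 and 5607 CPM in 2D against 5393 and 4516 in 0D, but without cells of over 20000 UMIs their median was -0.17. Reg family and other antimicrobial genes had 3 positive of 6 (median 0.49), with Reg3b, a secreted lectin, at 1950 and 713 CPM in 2D against 648 and 215 in 0D (log2 1.64 ± 0.53, edgeR adjusted p = 0.420). Glucocorticoid-responsive genes had 7 positive of 11 (median 0.09) and clock genes 8 of 11 (median 0.46). Mitochondrially encoded transcripts had 1 positive of 13 (median -0.24), and of 13 tuft cell genes only 2 were abundant enough to test, both positive.

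Last, the change in Neurog3 cells was set against that in other cells of the same libraries, by an edgeR term for class by group that blocks on the library. Against granin-bearing cells with 0 Neurog3 UMIs (2002 cells), the change differed for 14 of 11465 genes (0.122%), 11 with a higher change in Neurog3 cells (0.0959%), and 3 with a lower one (0.0262%), namely Fabp1, Rbp2 and Hist1h2ap. The 11 were Lyz1, Itln1, Mptx2, Gm14851, AY761184 and 6 alpha-defensin genes, and Apoa1 and Ckb came next on the lower side without passing. The difference for Hist1h2ap was -1.19 ± 0.18 (log2, edgeR adjusted p = 0.00364), and the gene was lower in 2D in both kinds of cell. Of 24 endocrine factors 20 had a positive difference (median 0.25, background 51.1% positive and 48.9% negative), and of 29 G2 and mitosis genes 28 had a negative one (median -0.68), with 0 passing in either list and 17 mitosis genes at an unadjusted p under 0.05 (background 3.3% higher and 3.11% lower).

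Lgr5 cells (at least 2 Lgr5 UMIs, 0 of Neurog3 and under 10 granin UMIs, 1412 cells) carried much Paneth transcript. They are not a pure stem cell set. The Paneth list summed there to 234620 and 268459 CPM in 2D and to 138207 and 176717 in 0D. Against these cells the change differed for 27 of 11587 genes (0.233%), 26 of them with a higher change in Neurog3 cells (0.224%). The 26 included Lyz1, Itln1, alpha-defensin genes and the immune genes Cd52 and Igkc. The single gene with a lower change (0.00863%) was Gm42418, at -0.93 ± 0.14 (log2, edgeR adjusted p = 0.00915), which was lower in 2D in both kinds of cell. G2 and mitosis genes were negative for 26 of 29 (median -0.76, background 50.9%), 17 had an unadjusted p under 0.05 (background 2.84% higher and 3.89% lower), and 0 passed. Hist1h2ap, Pbk, Esco2 and Gadd45g came next on the lower side without passing. Without the Paneth-rich and immune-marked cells only Gm42418 passed. In the comparison with granin-bearing cells 14 genes passed without them, 2 higher and 12 lower.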

How the data were processed

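Per the labels' protocols, libraries were made from crypt cells with a 10x 3′ kit of version 2. The authors deposited raw UMI counts per gene and barcode, whole numbers, with replicates not pooled. Counting was done with Cell Ranger 2.1.1 on mm10 per the submitters' processing notes, while the file headers name cellranger 7.0.0; intron counting is not given in the sources used here.

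QC cells totalled 93090534 to 113758758 UMIs per library. Counts of the chosen cells were summed per library and tested with edgeR 4.0.16 (filterByExpr, TMM, quasi-likelihood, Benjamini-Hochberg over all genes tested, threshold 0.05) in R 4.3.3, on 2 against 2 libraries. Against other cell classes the term for class by group was tested, with each library a block. In simulated counts with a dispersion of 0.02, 49.0% of 98 genes changed 1 log2 unit and 92.9% of 98 changed 2 units were recovered for the Neurog3 cells. At a dispersion of 0.1 these were 9.47% and 47.4%. For the difference from granin-bearing cells, 19% and 87% of 100 genes each were recovered at 0.02, and 0% and 8% at 0.1. The dispersion of the measured counts is not given here. Shares used exact permutation tests over libraries. Genes named are those of the endocrine, Notch, granule and hormone lists that the text turns on, the 10 smallest p in each direction (5 for the class-by-group terms), the 20 leading genes with at least 50 CPM (ratio with a prior of 10 CPM), and up to 4 abundant members of other lists. Irf7, the Sst and Lyz1 levels near the threshold, and the cells behind single genes were picked after their values were seen.

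All cells were kept as to doublets. Leaving out the 8% with the highest Scrublet score (scanpy 1.11.5) was an alternative, as were DESeq2 1.42.0, other size factors, filters, depths, thresholds and each library left out. The members and lists were chosen with earlier results of these data known. Thinning used seed 1 and numpy 2.4.6.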

Additional observations from a re-analysis of the deposited data

Results flagged for a closer look

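The change between 2D and 0D differed between Neurog3 cells and other cells of the same libraries, by edgeR's test of the difference. Against granin-bearing cells it differed for 14 genes. Among the Paneth genes the log2 difference was 3.72 for Defa30, 2.95 for Lyz1, 2.52 for Itln1, 3.14 for Mptx2 and 3.85 for Gm14851. Among the genes with a lower change it was -2.82 for Fabp1, -2.11 for Rbp2 and -1.19 for Hist1h2ap. Most Fabp1 UMIs of the Neurog3 cells in each 0D library sat in 1 cell, and Hist1h2ap was lower in 2D in both kinds of cell. The Paneth list summed to 50224 and 88892 CPM in 2D and to 2992 and 3475 in 0D in Neurog3 cells. In granin-bearing cells it summed to 84881 and 45331 CPM in 2D and to 19138 and 22963 in 0D.

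Against Lgr5 cells the change differed for 27 genes. The log2 difference was 4.44 for Defa30, 4.16 for Mptx2, 4.87 for Gm14851, 3.64 for Defa24 and 4.37 for Defa5, and -0.93 for Gm42418. In Lgr5 cells the Paneth list summed to 234620 and 268459 CPM in 2D and to 138207 and 176717 in 0D. Without the Paneth-rich and immune-marked cells the log2 difference was 0.76 for Defa30, 1.01 for Mptx2, 0.91 for Gm14851, 0.43 for Defa24, 1.45 for Defa5 and -0.93 for Gm42418. Those cells were chosen by their Paneth share, so lower Paneth values without them follow in part from the choice.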

How the results depend on the processing

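The count of genes that changed in Neurog3 cells (34) stayed within 1.5 times under DESeq2 (39), DESeq2 size factors, no filter, at most 10% mitochondrial UMIs, thinning (33, of which 28 shared) and without cells of over 20000 UMIs (26, of which 20 shared). It was 92 with at least 3 Neurog3 UMIs and 98 with the replicate block (42 higher and 56 lower). No label says that equal numbers pair libraries. With 2 libraries per group, deviations give a single correlation, 0.155, and crossed pairs must give its negative, so it cannot show a pairing. The count was 9 without the Paneth-rich and immune-marked cells and 0 without the highest doublet scores, where the Paneth median was still 3.42. Leaving out a library gave 35 to 203 (203 without 2D-1, 180 without 2D-2, 45 without 0D-1). Where 1 library is left in a group, it is assumed to vary like the others.

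Against granin-bearing cells the 14 genes became 49 with at least 3 Neurog3 UMIs, 6 at 10% mitochondrial UMIs, 2 with DESeq2, 67 with no filter, 6 after thinning, 0 without the highest doublet scores (edgeR, 488 genes at an unadjusted p under 0.05) and 9 to 57 with a library left out. Against Lgr5 cells the 27 became 85, 146 with no filter, 1 without the Paneth-rich cells, 0 without the highest doublet scores and 46 to 379. Without the Paneth-rich cells the difference from granin-bearing cells reversed for Lyz1 (-0.046), Itln1 (-0.51) and Mptx2 (-0.030). The share of Neurog3 cells ran from -0.142 to 0.766 percentage points with a library left out, reversed without 2D-2 (-0.142) and as a share of endocrine cells (-6.80), and was 0.312 with the replicate block. That of granin-bearing cells among them ran from 0.984 to 11.0 and kept its direction in each alternative. Of 517 values of named genes under alternatives, 390 kept direction and side of the threshold, 79 lost it and 45 gained it. The causes were not tested.

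Depth limits the Neurog3 threshold itself: 8 and 65 Neurog3 cells in 2D and 20 and 11 in 0D had under 5000 UMIs and left the thinned counts.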
